A study of Sus scrofa with 17 samples.

Results

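Interleukin 33 (IL33), its receptor subunit IL1RAP, the growth factor HBEGF and 4 further genes for factors that muscle is known or proposed to secrete (IL15, FNDC5, VEGFA and METRNL) were examined in the muscle of weaned piglets. These 7 genes, of 31908 in the count table, were chosen by name and selected on measured values, since their levels under the 3 diets were already known. Their differences between diets are therefore given as a description, with standard errors (SE) and without a test.

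The study asked how muscle responds to a diet with the green seaweed Ulva lactuca, with or without an enzyme that cuts ulvan, a polysaccharide of its cell wall. Male Large White × Duroc piglets entered the trial at 28 days of age, were adapted for 5 days in individual metabolic cages and were pair-fed their diets for 2 weeks. Control piglets received a feed of wheat, maize and soybean meal, UL piglets a feed with 7% Ulva lactuca, and ULU piglets the UL feed with 0.01% ulvan lyase. RNA of the longissimus muscle (dorsi in the sample labels, lumborum in the methods) was sequenced as single reads of 75 nt from 6 control, 6 UL and 5 ULU piglets, 1 library per piglet, whereas the methods name 6 piglets for each diet. Counted reads per library ranged from 16137365 to 26546810, the medians being 17240387 (control), 18398491.5 (UL) and 22320520 (ULU). Levels are given as CPM, the share of a gene in the counted reads of its library on the usual per-1000000 scale, after TMM scaling between libraries. A count of 3 reads, taken as the limit of detection, was between 0.113 and 0.186 CPM before scaling, and this limit covers counting error only.

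Interleukin 33 is kept in the nucleus of endothelial and stromal cells and is released when they are damaged. It binds the receptor IL1RL1, which needs the shared subunit IL1RAP to signal through MYD88, and in muscle this signal is known to maintain regulatory T cells after injury. HBEGF is made as a membrane protein, is shed by metalloproteases and activates EGF receptors, whereas interleukin 15, irisin (cleaved from FNDC5), VEGFA and meteorin-like (METRNL) are discussed as myokines, proteins that contracting muscle releases to act on other cells.

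Each of the 7 symbols matched a single gene of the annotation, on the assembly Sscrofa11.1. IL33 (ENSSSCG00000005203) is on chromosome 1, from 215899435 to 215941840 on the minus strand. It overlaps the span of RANBP6 on the opposite strand, with 0 exon bases shared. RANBP6 averaged 83.7 ± 8.68 CPM in control (SD, n = 6), 66.9 ± 9.93 CPM in UL (SD, n = 6) and 73.6 ± 7.30 CPM in ULU (SD, n = 5). Its part in the counts of IL33 was not tested. IL1RAP (ENSSSCG00000021206) is on chromosome 13, from 127933682 to 128072348 on the plus strand, and HBEGF (ENSSSCG00000014362) is on chromosome 2, from 142102456 to 142115344 on the minus strand. IL15 (ENSSSCG00000009051) lies on chromosome 8, from 85667307 to 85740911 on the minus strand, and FNDC5 (ENSSSCG00000025834) on chromosome 6, from 89163363 to 89173792 on the minus strand. VEGFA (ENSSSCG00000001695) lies on chromosome 7, from 38746052 to 38761038 on the plus strand, and METRNL (ENSSSCG00000017137) on chromosome 12, from 228503 to 241496 on the minus strand. The genes therefore lie on 7 different chromosomes. The RefSeq model of VEGFA on the same assembly runs 1244 bases past the end of the counted gene, so reads from that stretch were not counted for VEGFA. That of IL1RAP, on the plus strand, begins 443 bases before the start of the counted gene. Those of IL15 and METRNL, on the minus strand, run 344 and 275 bases past its end in the direction of transcription. Reads from those stretches were not counted for these genes either.

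Few reads stood behind several of these genes. HBEGF had between 144 and 1071 reads per library, IL33 between 67 and 426 and IL1RAP between 36 and 195. IL15 had between 24 and 117 reads and FNDC5 between 19 and 69. METRNL had 255 reads and VEGFA 144 reads over the 17 libraries together, with as few as 7 and 3 in a single library, so that small differences of these 2 genes were not detectable at this depth. All 7 genes were kept by the filter on low counts, which left 14203 genes to be tested.

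Levels of different genes were compared per kilobase of exon. Over the 17 libraries HBEGF was the most abundant, with 8.01 ± 4.46 CPM per kilobase (SD, n = 17), and it was above the next gene in 17 of 17 libraries. IL33 followed with 1.92 ± 1.40 CPM per kilobase (SD, n = 17) and IL15 with 1.36 ± 0.476 CPM per kilobase (SD, n = 17). These 2 neighbours differed by less than the larger of their SDs, and IL33 was the higher of them in 11 of 17 libraries. FNDC5, IL1RAP and METRNL, with 0.643, 0.626 and 0.610 CPM per kilobase, could not be ordered over the 17 libraries together either, the gap between neighbours being at most 0.0534 of the larger SD. VEGFA was last with 0.180 ± 0.0773 CPM per kilobase (SD, n = 17), below METRNL in 17 of 17 libraries. Its level may be underestimated, since reads past the end of its counted gene were left out. The levels of IL15, METRNL and IL1RAP may be too, as their RefSeq models also run outside the counted genes. The order changed with the diet, since IL1RAP was in place 4 in control with 0.937 CPM per kilobase and in place 6 in ULU with 0.325 CPM per kilobase. METRNL was above IL1RAP in 5 of 5 ULU libraries, the gap being 2.80 of the larger SD, and it was in place 4 in UL. In ULU, IL15 and IL33 stood at 1.28 and 1.24 CPM per kilobase and did not differ beyond their spread.

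**Figure D1:**
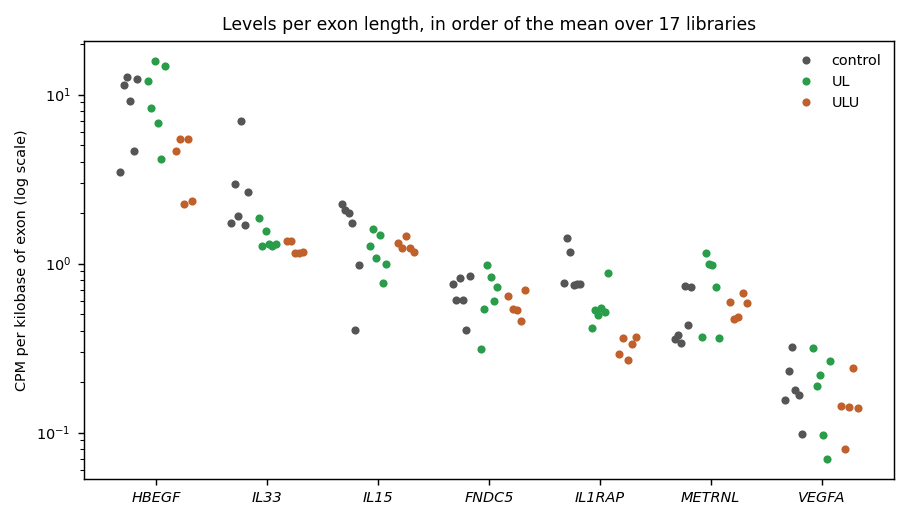
Level of each gene in each library as CPM per kilobase of exon on a log axis, with genes ordered by their mean over the 17 libraries and points coloured by diet. HBEGF lies above IL33 and METRNL lies above VEGFA in every library, whereas FNDC5, IL1RAP and METRNL share a range.

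The libraries were those of skeletal muscle. Of 10 fibre markers, 7 had a row under their name in the table, and skeletal actin (ACTA1) was the most abundant, at 67349 ± 13249 CPM in the control libraries (SD, n = 6). The 7 markers summed to between 119929 and 187196 CPM in control, with a median of 160268, and to between 153354 and 192482 CPM in UL, with a median of 188806. The ULU libraries had sums of 220673, 223126, 167124, 307388 and 196383 CPM. Of these 5 sums, 4 were above every control library, and the groups overlapped through ULU replicate 42. In ULU vs control 3 of the 7 markers rose and 0 fell by the quasi-likelihood test of edgeR, with Benjamini-Hochberg adjustment over all genes tested. They were the slow troponin gene TNNT1 (log2(fold change) 1.30, SE 0.27, adjusted p = 0.0178), the fast troponin gene TNNT3 (0.66, SE 0.15, adjusted p = 0.0280) and the fast myosin gene MYH2 (0.53, SE 0.13, adjusted p = 0.0397), named here after their values were seen. These calls were not stable, since 18, 13 and 10 of 21 alternatives kept them, in the same order. Over the alternatives the adjusted p reached 0.0542 for TNNT1 (lost without ULU replicate 40 or 41 and with the 2 diets compared alone), 0.0752 for TNNT3 (lost there, with no filter on low counts and without control replicate 22, 23 or 26 or ULU replicate 43) and 0.126 for MYH2. The call of MYH2 was lost without control replicate 22, 23, 24 or 26, UL replicate 29 or ULU replicate 40, 41, 43 or 44, with no filter and with the 2 diets alone. Other fibre markers were called in ULU vs control under some alternatives, ACTA1 by DESeq2 and without control replicate 25 or ULU replicate 42 and CKM without control replicate 25, and DESeq2 also called TNNT1 in UL vs control.

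Libraries also differed in the share of reads from the mitochondrial chromosome, which averaged 14.8% ± 0.697 under the control diet (SD, n = 6), 11.6% ± 2.11 under UL (SD, n = 6) and 10.2% ± 1.47 under ULU (SD, n = 5). The difference was -3.15 percentage points in UL vs control (two-sided exact permutation test, p = 0.0108, adjusted p = 0.0487 over 9 tests) and -4.55 points in ULU vs control (exact p = 0.00433, adjusted p = 0.0390). The other 7 tests, on this share in ULU vs UL, on counted reads and on the share of reads on the 10 most counted genes, gave adjusted exact p-values between 0.127 and 0.753. The part of fibre markers and of the mitochondrial share in the differences given here was not tested. In bulk muscle, fewer cells of a type and less RNA per cell cannot be told apart.

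Across all 14203 genes tested, edgeR called 0 genes (0%) in UL vs control at an adjusted p under 0.05, and so 0 differentially expressed genes (DEGs, 0%), for which log2(fold change) must also reach 1 in either direction. An unadjusted p under 0.05 was found there for 1541 genes, and DESeq2 called 149 genes, of which 11 were DEGs. In ULU vs control, edgeR called 423 genes (2.98%), of which 59 (0.415%) were DEGs, and in ULU vs UL it called 5 genes (0.0352%), of which 2 (0.0141%) were DEGs. DESeq2 called 825 genes in ULU vs control (89 DEGs) and 246 in ULU vs UL (4 DEGs), and it gave an adjusted p to 10209, 11500 and 3951 genes in the order of the comparisons, so that its counts cover fewer genes than those of edgeR. The libraries of the diets compared did not overlap for 121 genes (0.852%) in UL vs control, for 482 genes (3.39%) in ULU vs control and for 249 genes (1.75%) in ULU vs UL. Of the 7 genes, 2 did not overlap between ULU and control, IL33 and IL1RAP, and IL1RAP also did not overlap in ULU vs UL. The 59 DEGs of ULU vs control became 30 without control replicate 22, 33 without 23 and 121 without 25, and 32, 37 and 30 without ULU replicates 40, 41 and 43. Since these comparisons entered the choice of the genes, nothing is read from the overlap of the 7, and whether edgeR or DESeq2 called any of them is not given in any comparison, as this would test the values that chose them. The comparisons share libraries, each diet entering a pair of them.

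IL33 was lower in both seaweed diets than in control. In control its level was lowest at 5.59 CPM, with a median of 7.58 and a highest value of 23.2 CPM. In UL the lowest, median and highest values were 4.21, 4.33 and 6.18 CPM, and the ULU libraries had 4.50, 4.55, 3.86, 3.84 and 3.89 CPM. Every ULU library was below every control library, and 5 of 6 UL libraries were, the exception being UL replicate 27, while UL and ULU overlapped. The log2(fold change) was -1.07 (SE 0.28) in UL vs control, -1.27 (SE 0.30) in ULU vs control and -0.20 (SE 0.30) in ULU vs UL. Control replicate 24 alone stood at 23.2 CPM, the other 5 control libraries averaging 7.27 ± 1.91 CPM (SD, n = 5). Without it the log2(fold change) was -0.62 for UL and -0.82 for ULU, each against control, and without UL replicate 27 the value of ULU vs UL was -0.11. The same library had the highest sum of the 6 adipocyte markers, 581 CPM against at most 182 CPM in any other library.

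The spread of IL33 between libraries was also unequal. The SD of its log2 CPM was 0.77 in control, where the median gene had 0.35, but 0.22 in UL and 0.12 in ULU, where the median gene had 0.31 and 0.32. Without control replicate 24 the SD in control was 0.36, near that of the median gene, so the wide spread in control rested on that library.

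**Figure D2:**
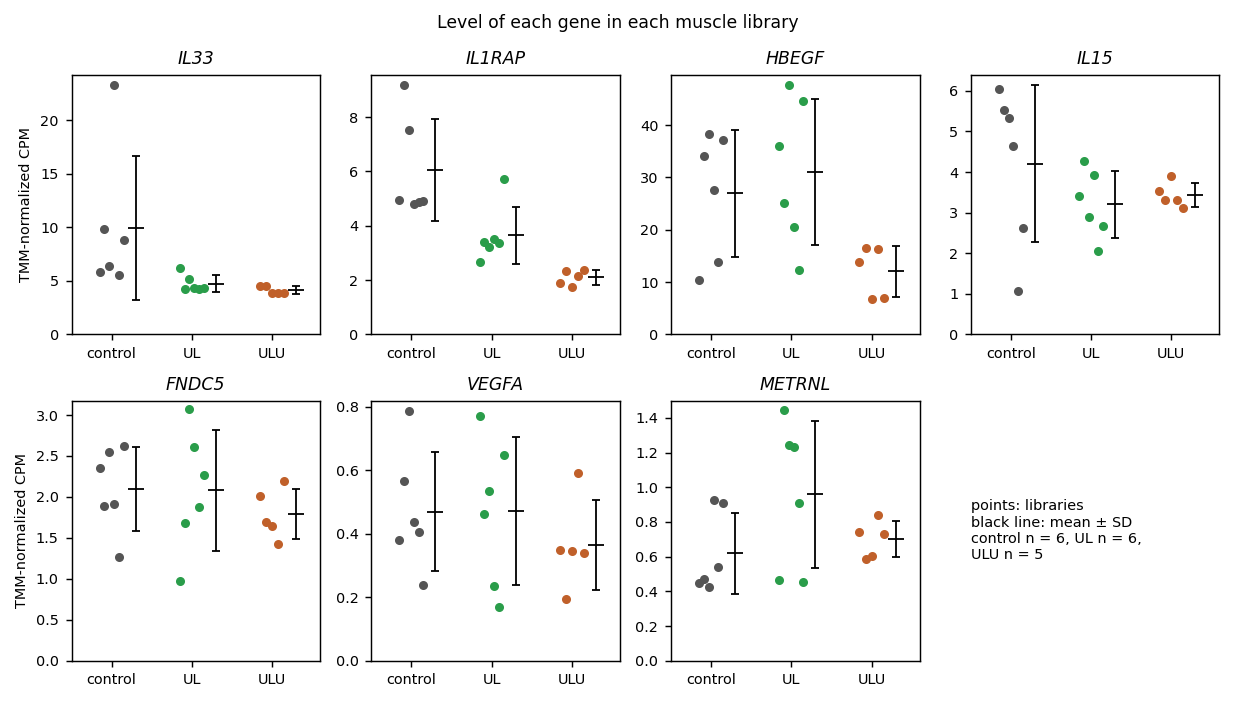
TMM-normalized CPM of the 7 genes in each of 17 libraries by diet (points), with the mean and SD of each diet beside them (control n = 6, UL n = 6, ULU n = 5) and every vertical axis starting at 0. IL33 in control ranges from 5.59 CPM to 23.2 CPM in replicate 24, IL1RAP in ULU lies below every other library, and the remaining 5 genes overlap between diets.

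IL1RAP, the subunit that IL33, interleukin 1 and interleukin 36 receptors share, had its highest levels in control and its lowest in ULU. Its control libraries ranged from 4.80 to 9.19 CPM with a median of 4.94 CPM, and its UL libraries from 2.68 to 5.72 CPM with a median of 3.38 CPM. The ULU libraries had 1.88, 2.34, 1.73, 2.17 and 2.38 CPM. All 5 ULU values were below all control and UL values, whereas UL overlapped control through UL replicate 32 alone, with 5.72 CPM. The log2(fold change) was -0.73 (SE 0.21) in UL vs control, -1.53 (SE 0.23) in ULU vs control and -0.79 (SE 0.23) in ULU vs UL. It remained between -1.58 and -1.36 in ULU vs control when any library was left out. In UL vs control it then ranged from -0.90 without UL replicate 32 to -0.57 without control replicate 22. The value of ULU vs UL ranged from -0.87 without UL replicate 27 to -0.62 without UL replicate 32.

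The gene lists given from here on, like the 7 genes, were chosen with earlier results of these data known, so their calls are given as a description. Of the other 16 genes listed for the IL33 and IL1 receptor family, 10 could be tested. In ULU vs control 1 fell and 0 rose, and their median log2(fold change) was -0.34 beside -0.03 over all genes tested. The gene that fell was IL1R1, the signalling receptor of interleukin 1, which also pairs with IL1RAP. It averaged 18.4 ± 2.87 CPM under the control diet (SD, n = 6), 14.4 ± 3.20 CPM under UL (SD, n = 6) and 10.5 ± 1.67 CPM under ULU (SD, n = 5), with every ULU library below every control library. In ULU vs control it fell, at a log2(fold change) of -0.82 with SE 0.16 (edgeR, adjusted p = 0.0142), and the call held in 21 of 21 alternatives. In UL vs control and ULU vs UL, 0 of the 10 genes were called by edgeR, with smallest adjusted p-values of 0.390 and 0.308 and medians of -0.26 and -0.15, while 2 and 1 had an unadjusted p under 0.05. DESeq2 called 0 of the 7 genes of this list to which it gave an adjusted p in UL vs control and 0 of 1 in ULU vs UL.

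The receptor of IL33 itself, IL1RL1, named here after its values were seen, had 1 to 25 counted reads in each library. It overlaps IL18R1 on the same strand, the 2 genes sharing 6746 exon bases, which are 98.5% of IL18R1 and 46.3% of IL1RL1. Reads in shared exons fit both genes and were counted for neither, so the counts of these 2 genes cannot be read as their levels. CASP1, a protease that matures interleukin 1 beta and interleukin 18, had the lowest log2(fold change) of the list in each comparison, -0.88 (SE 0.65) in UL vs control, -1.54 (SE 0.71) in ULU vs control and -0.66 (SE 0.71) in ULU vs UL. At the other end stood the kinase IRAK1 in UL vs control, with 0.19 (SE 0.29; 0.47 without control replicate 24 and 0.10 without control replicate 22), and the cytokine IL18 in ULU vs control and ULU vs UL, with 0.64 (SE 0.80) and 0.56 (SE 0.80). The values of IL18 rested on ULU replicate 42, which had 96.8 CPM, and without it they were -1.53 (SE 0.63) and -1.62 (SE 0.64). None of these 3 genes passed the test with all libraries. Without ULU replicate 42 the values of CASP1 were -2.74 (SE 0.71) in ULU vs control, where it then passed the test, and -1.87 (SE 0.70) in ULU vs UL. Without UL replicate 30 its value was -1.37 (SE 0.68) in UL vs control and -0.17 (SE 0.71) in ULU vs UL, and without control replicate 21 it was -0.54 (SE 0.67) in UL vs control. IL1A, IL1B, IL1R2, IL18R1 and IL18RAP were filtered out with at most 13 reads in a library, IL18R1 having 0 counted reads in all 17, and IL1RN had no row under that name.

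HBEGF behaved differently, as it was lower in ULU alone and varied widely within each diet. Its control libraries had a lowest level of 10.4 CPM, a median of 30.9 CPM and a highest level of 38.4 CPM, and its UL libraries 12.4, 30.5 and 47.6 CPM. The ULU libraries had 13.9, 16.4, 6.76, 16.3 and 7.003 CPM. Of these, 2 were below every control and UL library, and the other 3 were within the range of both, so that the groups overlapped. HBEGF had a log2(fold change) of 0.20 (SE 0.35) in UL vs control, -1.16 (SE 0.38) in ULU vs control and -1.36 (SE 0.38) in ULU vs UL. The small value of UL vs control ranged from 0.04 without control replicate 21 to 0.37 without UL replicate 31. The SD of log2 CPM of HBEGF was 0.80 in control, 0.74 in UL and 0.64 in ULU, more than that of the median gene in each diet.

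**Figure D3:**
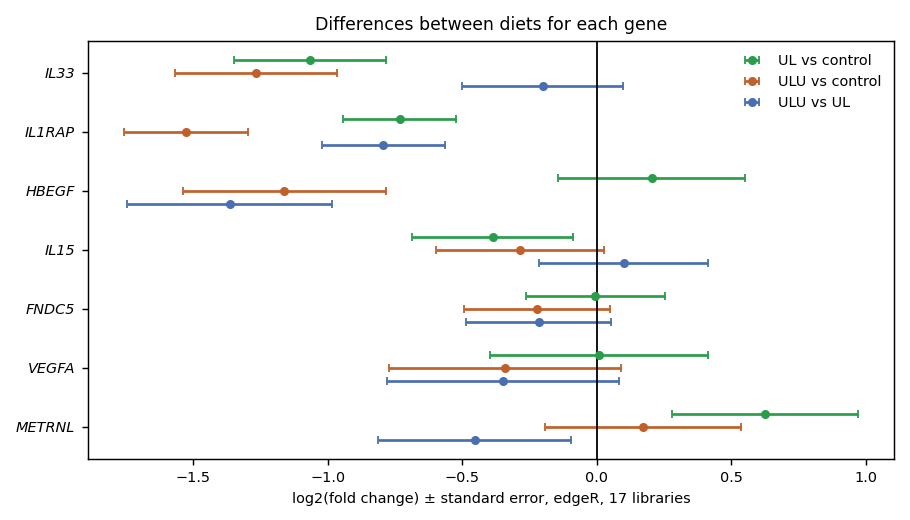
log2(fold change) of the 7 genes in the 3 comparisons, from 1 edgeR model of 17 libraries, with bars of 1 standard error. IL33 and IL1RAP lie below 0 in UL vs control and ULU vs control, HBEGF lies near 0 in UL vs control and at -1.16 and -1.36 in the comparisons of ULU, and the other 4 genes lie within 1 of 0.

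Around HBEGF, 22 further ligands, receptors, sheddases and feedback regulators of the EGF receptor family were listed and 18 were tested. Their median log2(fold change) was 0.00 in UL vs control, -0.19 in ULU vs control and -0.04 in ULU vs UL. In ULU vs control 1 fell and 0 rose, and in the other comparisons edgeR called 0, with smallest adjusted p-values of 0.243 and 0.359 and 1 and 4 genes with an unadjusted p under 0.05, while DESeq2 called 0 of 16 and 0 of 8 genes with an adjusted p. The gene that fell was SPRY1, an inhibitor of receptor tyrosine kinase signalling, from 24.1 ± 4.07 CPM under the control diet (SD, n = 6) to 16.6 ± 1.54 CPM under ULU (SD, n = 5), without overlap. Its log2(fold change) was -0.54 with SE 0.12 (edgeR, adjusted p = 0.0287). The call was lost in 7 of 21 alternatives, without control replicate 22, 23 or 24 or ULU replicate 40 or 43, with no filter on low counts and with the 2 diets compared alone, and the adjusted p over the 21 ranged from 0.00892 to 0.0700. SPRY1 also had the lowest log2(fold change) of the list in UL vs control, -0.38 with SE 0.12 (edgeR, adjusted p = 0.243).

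By edgeR, none of the other feedback regulators passed the test. ERRFI1, which blocks the kinase of EGF receptors, had the lowest log2(fold change) in ULU vs UL, -0.80 (SE 0.37), and SPRY4 the highest in UL vs control, 0.29 (SE 0.32), which ranged from 0.12 without control replicate 21 to 0.46 without control replicate 23. The ligand EREG had the highest values in both comparisons of ULU, 0.46 (SE 0.30) against control and 0.74 (SE 0.30) against UL, which were 0.15 (SE 0.29) and 0.44 (SE 0.29) without ULU replicate 44. The ligands TGFA, AREG, NRG1 and NRG2 were filtered out, with at most 16 reads in a library.

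IL15, a cytokine of T and natural killer cells that muscle fibres also make, had levels that overlapped in all comparisons. In control the lowest, median and highest values were 1.08, 4.99 and 6.05 CPM, and in UL they were 2.05, 3.14 and 4.28 CPM. The ULU libraries had 3.54, 3.31, 3.90, 3.30 and 3.11 CPM. The low control values were those of replicates 25 and 26, and all UL and ULU values were within the control range. The log2(fold change) was -0.39 (SE 0.30) in UL vs control, -0.29 (SE 0.31) in ULU vs control and 0.10 (SE 0.31) in ULU vs UL. These values moved with single libraries. Without control replicate 25 the values against control were -0.59 for UL and -0.49 for ULU, and without control replicate 21 they were -0.26 and -0.16. Between ULU and UL the value ranged from 0.00 without UL replicate 31 to 0.20 without UL replicate 28.

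Of 7 other genes of the IL15 receptor and its signalling, 6 were tested and 2 rose in ULU vs control, while 0 fell. Both encode transcription factors that act below this receptor and below that of growth hormone. STAT5A averaged 39.1 ± 11.4 CPM under the control diet (SD, n = 6) and 74.4 ± 17.2 CPM under ULU (SD, n = 5), which gave a log2(fold change) of 0.93 with SE 0.20 (edgeR, adjusted p = 0.0199). STAT5B averaged 25.8 ± 4.64 CPM under the control diet (SD, n = 6) and 37.4 ± 6.68 CPM under ULU (SD, n = 5), at 0.53 with SE 0.13 (edgeR, adjusted p = 0.0367). Some ULU libraries overlapped control for each of them. STAT5A kept its call in 21 of 21 alternatives. The call of STAT5B was lost in 8 of the 21, with the 2 diets compared alone and without control replicate 22, 23, 24 or 26 or ULU replicate 42, 43 or 44, its adjusted p ranging from 0.0170 to 0.0996 over 21 alternatives. The 2 genes are neighbours on chromosome 12 with similar sequences, and reads that fit both cannot be assigned.

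The receptor chains gave values in the opposite direction. IL2RB had the lowest log2(fold change) of the list in ULU vs control, -1.20 (SE 0.47), and in ULU vs UL, -0.66 (SE 0.47; -1.06 without ULU replicate 42), and IL2RG the lowest in UL vs control, -0.64 (SE 0.48). Neither passed the test, and STAT5A had the highest value in each comparison. The median of the 6 genes was -0.17 in UL vs control, -0.14 in ULU vs control and 0.02 in ULU vs UL, with 0 called by edgeR in the first and last of these, where 0 and 2 had an unadjusted p under 0.05 and DESeq2 called 0 of 4 and 2 of 3 genes with an adjusted p (STAT5A and STAT5B). IL15RA, the chain that presents IL15, was filtered out with 0 to 8 reads per library.

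FNDC5, the precursor of irisin, had levels that overlapped between all diets. Its control libraries had 1.26, 2.13 and 2.63 CPM as the lowest, median and highest values, and its UL libraries 0.978, 2.08 and 3.07 CPM. The ULU libraries had 2.01, 1.69, 1.65, 1.43 and 2.19 CPM, all within the range of control and of UL. For FNDC5 the log2(fold change) was -0.01 (SE 0.26) in UL vs control, -0.22 (SE 0.27) in ULU vs control and -0.22 (SE 0.27) in ULU vs UL. When a library was left out, the value of UL vs control ranged from -0.15 (UL replicate 29) to 0.14 (UL replicate 27), that of ULU vs control from -0.33 (control replicate 25) to -0.13 (control replicate 26) and that of ULU vs UL from -0.36 (UL replicate 27) to -0.07 (UL replicate 29). Of 5 genes listed as regulators or receptor of FNDC5, 4 were tested and edgeR called 0 in any comparison, with a smallest adjusted p of 0.112 and 1 unadjusted p under 0.05 in each comparison. DESeq2 called 0 of 4, 0 of 4 and 0 of 3 genes with an adjusted p. PPARGC1A, a coactivator that induces FNDC5, had the highest log2(fold change) in each comparison, at most 0.44 (SE 0.24) in ULU vs control, which was 0.69 (SE 0.20) without control replicate 25 and did not pass the test there either. In UL vs control its value of 0.09 ranged from -0.01 without control replicate 24 to 0.34 without control replicate 25. The integrin chains ITGAV, with -0.24 (SE 0.11) in UL vs control, and ITGB1, with -0.35 (SE 0.12) in both comparisons of ULU, had the lowest. The medians of the 4 genes were 0.03, -0.11 and -0.02 in the order of the comparisons above.

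VEGFA, the main growth factor of blood vessels, was near the limit of detection in all diets. Its control libraries ranged from 0.239 to 0.788 CPM with a median of 0.421 CPM, its UL libraries from 0.171 to 0.772 CPM with a median of 0.498 CPM, and the ULU libraries had 0.349, 0.195, 0.347, 0.591 and 0.340 CPM. The diets overlapped, and the log2(fold change) was 0.01 (SE 0.40) in UL vs control, -0.34 (SE 0.43) in ULU vs control and -0.35 (SE 0.43) in ULU vs UL. Without ULU replicate 43 the values of ULU were -0.58 against control and -0.58 against UL, and without ULU replicate 41 they were -0.20 and -0.21, while that of UL vs control ranged from -0.13 without control replicate 26 to 0.18 without UL replicate 31. Of 12 other genes of the VEGF family, its receptors and hypoxia factors, 11 were tested, and edgeR called 0 in each comparison (0, 1 and 1 with an unadjusted p under 0.05), the smallest adjusted p being 0.0808, for the hypoxia partner ARNT in ULU vs control (log2(fold change) -0.36, SE 0.11), which shares 1267 of its 5709 exon bases with CTSS. ARNT passed the test of edgeR without control replicate 25, at -0.42 (SE 0.10), and without ULU replicate 43, at -0.46 (SE 0.10). DESeq2 called 0 of the 8, 10 and 4 genes with an adjusted p. In ULU vs control 8 of the 11 had values below 0, with a median of -0.30, beside 53.0% of all genes tested and a median of -0.03. For UL vs control the median was -0.07, and for ULU vs UL it was -0.20. The receptor KDR had the highest log2(fold change) in UL vs control, 0.37 (SE 0.22), and in ULU vs control, 0.43 (SE 0.23), and EPAS1 in ULU vs UL, 0.22 (SE 0.15). Without control replicate 25 the values of KDR were 0.23 and 0.28, without UL replicate 32 the first of them was 0.21, and without UL replicate 27 that of EPAS1 was 0.13. The lymphatic receptor FLT4 had the lowest in both comparisons of ULU, -0.80 (SE 0.49) and -0.78 (SE 0.49), and ARNT in UL vs control, -0.17 (SE 0.11).

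METRNL was the single gene of the 7 with a log2(fold change) above 0 in both comparisons with control. Its control libraries ranged from 0.424 to 0.928 CPM with a median of 0.506 CPM, its UL libraries from 0.455 to 1.45 CPM with a median of 1.07 CPM, and the ULU libraries had 0.743, 0.585, 0.607, 0.838 and 0.730 CPM. Of the UL libraries, 3 of 6 were above every control library, and all ULU libraries were within the control range. The log2(fold change) was 0.63 (SE 0.34) in UL vs control, 0.17 (SE 0.36) in ULU vs control and -0.45 (SE 0.36) in ULU vs UL. For ULU vs control it ranged from 0.09 without control replicate 23 to 0.32 without control replicate 26. KIT, a receptor to which METRNL binds, averaged 12.3 ± 3.39 CPM under the control diet (SD, n = 6) and was not called by edgeR in any comparison, with a log2(fold change) of 0.21 (SE 0.29), -0.30 (SE 0.31) and -0.52 (SE 0.31) in the same order. Without UL replicate 32 the value of KIT was -0.21 (SE 0.21) in UL vs control and -0.09 (SE 0.22) in ULU vs UL. In ULU vs control it was -0.20 (SE 0.32) without ULU replicate 42 and -0.45 (SE 0.33) without ULU replicate 44. Its unadjusted p was under 0.05 in 0 of the 3 comparisons, and DESeq2 did not call it in the 2 comparisons with control, the ones in which it had an adjusted p.

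Of 30 other muscle-secreted factors, 20 were tested, and edgeR called 0 in each comparison, with smallest adjusted p-values of 0.296 in UL vs control, 0.117 in ULU vs control and 0.277 in ULU vs UL. An unadjusted p under 0.05 was found for 2, 4 and 1 of them in that order, and DESeq2 called 0 of 15, 0 of 16 and 1 of 9 with an adjusted p (MSTN). Values below 0 were found for 13, 15 and 14 of the 20 genes, with medians of -0.15, -0.36 and -0.07 beside 0.00, -0.03 and -0.02 over all genes tested. Of all genes tested, 50.5%, 53.0% and 53.0% had values below 0 in the same order. The stress hormone FGF21 had the lowest log2(fold change) in both comparisons with control, -1.07 (SE 0.76) in UL and -1.94 (SE 0.84) in ULU, with levels from 0.690 to 22.8 CPM between libraries. In UL vs control the value of FGF21 was -2.77 (SE 0.63) without UL replicate 27 and -0.61 (SE 0.77) without control replicate 26, without passing the test in either case. IL7, with at most 20 reads in a library, had the lowest in ULU vs UL, -1.18 (SE 0.75). The growth factor IGF2 had the highest in both comparisons with control, 0.62 (SE 0.25) in UL and 0.73 (SE 0.26) in ULU, and myostatin (MSTN), which restrains muscle growth, the highest in ULU vs UL, 0.80 (SE 0.26). The interleukin 6 gene, the best known myokine, was filtered out with at most 5 reads in a library.

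**Figure D4:**
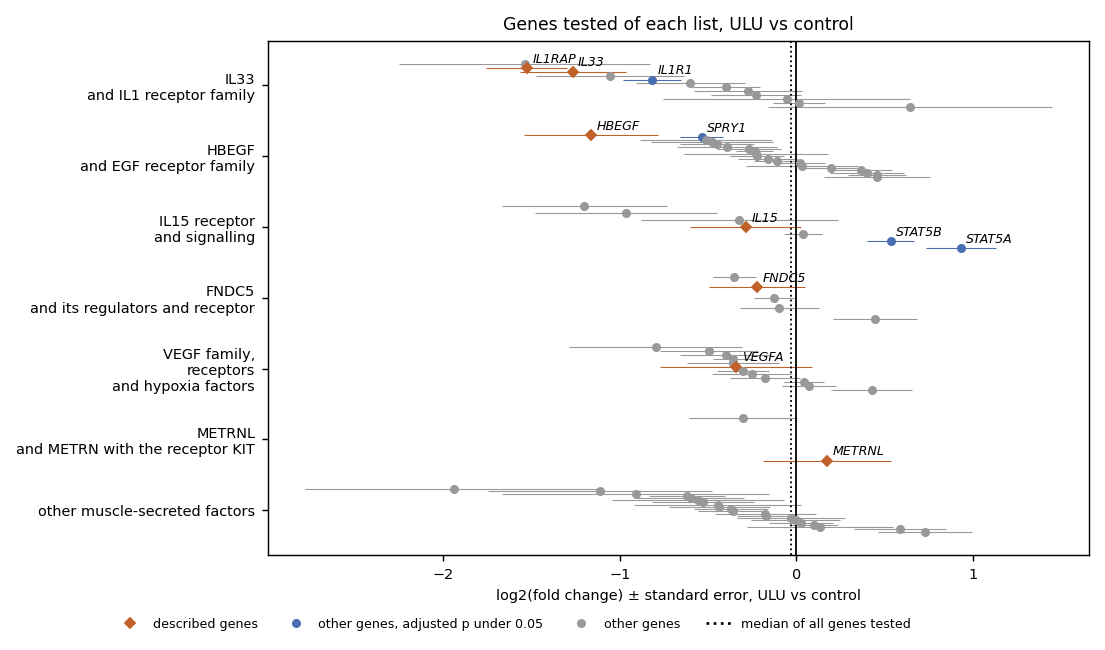
log2(fold change) in ULU vs control, with bars of 1 standard error, of every tested gene of the 7 lists (diamonds: the 7 described genes, without a test; blue: other genes with an adjusted p under 0.05; grey: other genes), and the median of all genes tested (dotted line). IL1R1 at -0.82 and SPRY1 at -0.54 fell, and STAT5A at 0.93 and STAT5B at 0.53 rose.

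Over the 7 lists together, 70 of 94 genes other than the described ones were tested, and in ULU vs control 2 rose and 2 fell (5.71% beside 2.98% of all genes). Because the lists were chosen with earlier results of these data known, nothing is read from the shares given here. The libraries of ULU and control did not overlap for 4 of the 70 (5.71% beside 3.39% of all genes), IL1R1, SPRY1, ITGB1 and IGF2. In UL vs control and ULU vs UL, 0 of the 70 were called by edgeR and 0 did not overlap. An unadjusted p under 0.05 (edgeR) was found for 6 of the 70 in UL vs control, 17 in ULU vs control and 10 in ULU vs UL. Among all 14203 genes tested it was found for 1541, 2678 and 1540, in the same order. DESeq2 gave an adjusted p to 55 of the 70 for UL vs control, 61 for ULU vs control and 28 for ULU vs UL. Of these it called 0, 4 (IL1R1, SPRY1, STAT5A and STAT5B) and 3 (STAT5A, STAT5B and MSTN).

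Whether the genes moved together from piglet to piglet was examined after the mean of its diet had been subtracted from each log2 CPM, so that the differences used to choose the genes were removed. These deviations were related over 17 libraries for each of 21 pairs. None of the pairs passed the test. The closest relation was that of HBEGF and VEGFA (Pearson's r = 0.489, permutation p = 0.0657, adjusted p = 0.682; Spearman's rho = 0.517, permutation p = 0.0563, adjusted p = 0.783; r = 0.329 without the 2 libraries farthest from the median of HBEGF). IL33 and HBEGF had r = 0.378 (permutation p = 0.206, adjusted p = 0.682) and rho = 0.412 (permutation p = 0.147, adjusted p = 0.783), with r = 0.484 without the 2 libraries farthest from the median of IL33. No relation was detected between IL33 and its receptor subunit IL1RAP (r = -0.160, permutation p = 0.681, adjusted p = 0.841; rho = -0.145, permutation p = 0.620, adjusted p = 0.864; r = -0.0944 without 2 libraries). Without the 2 libraries farthest from the median of the first gene, r changed sign for 4 of the 21 pairs, IL33 with IL15 (from 0.249 to -0.340), IL33 with METRNL (from 0.263 to -0.0309), IL15 with FNDC5 (from 0.273 to -0.173) and FNDC5 with METRNL (from 0.333 to -0.0595). At 17 libraries a weak relation would not be detectable.

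The genes were related in the same way to the summed markers of 10 cell types of muscle, which gave 70 relations. None passed the test after adjustment, the smallest adjusted p being 0.327 for r and 0.193 for rho, while 8 had a permutation p under 0.05 for r and 7 for rho. The smallest p for r was that of IL1RAP with smooth muscle and pericyte markers (r = 0.668, permutation p = 0.00943, adjusted p = 0.327; rho = 0.610, permutation p = 0.0167, adjusted p = 0.367; r = 0.492 without the 2 libraries farthest from the median of IL1RAP). IL1RAP with endothelial markers had r = 0.638 (permutation p = 0.0140, adjusted p = 0.327) and rho = 0.475 (permutation p = 0.0682, adjusted p = 0.367), with r = 0.496 without 2 libraries. FNDC5 had r = 0.596 with fibroblast markers (permutation p = 0.0111, adjusted p = 0.327), rho = 0.532 (permutation p = 0.0421, adjusted p = 0.367) and r = 0.645 without 2 libraries. HBEGF with smooth muscle and pericyte markers had r = 0.547 (permutation p = 0.0376, adjusted p = 0.330) and rho = 0.642 (permutation p = 0.0120, adjusted p = 0.367), with r = 0.400 without 2 libraries. The rest of the 8 for r also had an adjusted permutation p of 0.330. FNDC5 had r = 0.621 with smooth muscle and pericyte markers (0.470 without 2 libraries), and IL15 had r = 0.599 with fibroblast markers (0.298 without 2 libraries). IL1RAP had r = 0.537 with Schwann cell markers (0.569 without 2 libraries), and VEGFA had r = -0.542 with mast cell markers (-0.623 without 2 libraries). The smallest p for rho was that of IL33 with fibre markers (rho = -0.733, permutation p = 0.00276, adjusted p = 0.193; r = -0.354, permutation p = 0.212, adjusted p = 0.621; r = -0.507 without 2 libraries). IL33 and adipocyte markers had r = 0.521 (permutation p = 0.0838, adjusted p = 0.533) and rho = 0.218 (permutation p = 0.413, adjusted p = 0.805). This r was 0.0753 without the 2 libraries farthest from the median of IL33, so it rested on those libraries.

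**Figure D5:**
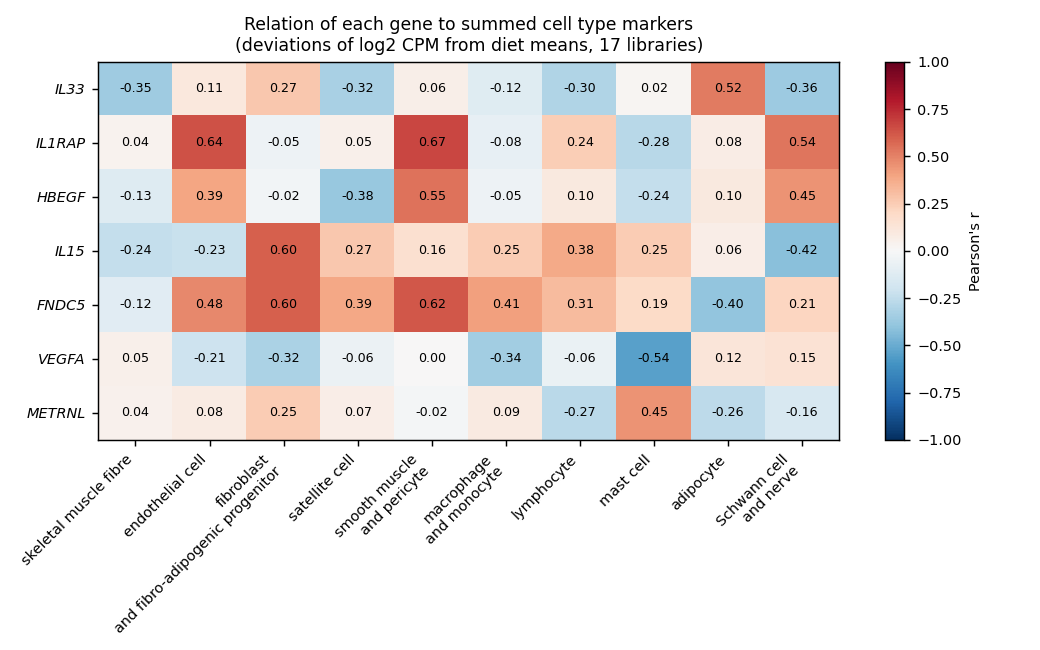
Pearson's r between each gene and the summed markers of each of 10 cell types over 17 libraries, after subtraction of the diet means from log2 CPM (red above 0, blue below 0). The highest value is 0.668, for IL1RAP with smooth muscle and pericyte markers, and none of the 70 relations passed the test after adjustment.

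The marker sums themselves overlapped between diets for all 10 cell types, and apart from the 3 fibre markers none of the tested markers was called by edgeR in any comparison with all libraries. When a library was left out of ULU vs control, edgeR called PTPRC and LUM as lower without ULU replicate 42 and PDGFRA as lower without control replicate 25, and it called AQP7 as higher without control replicate 21 or UL replicate 27, as did DESeq2 with all libraries. Endothelial markers (8 of 9 with a row under their name, PECAM1 the most abundant) summed to 149 ± 24.5 CPM under the control diet (SD, n = 6), 161 ± 55.9 CPM under UL (SD, n = 6) and 136 ± 28.4 CPM under ULU (SD, n = 5). Smooth muscle and pericyte markers (6 of 6, led by RGS5) summed to 437 ± 55.6, 408 ± 74.6 and 405 ± 44.5 CPM in the same order. Fibroblast markers (9 of 9, led by COL3A1) had the highest sums outside the fibres, 5902 ± 1494, 5373 ± 1446 and 4815 ± 1471 CPM. Endothelial sums in ULU, from 103 to 179 CPM, were within the range of UL, and the lowest fibroblast sum was that of a ULU library, 2583 CPM. The log2(fold change) of ULU vs control was below 0 for 9 of 9 fibroblast markers (median -0.31) and 7 of 8 endothelial markers (median -0.22), and for ULU vs UL it was below 0 for 9 of 9 (median -0.17) and 8 of 8 (median -0.26). In UL vs control 7 of 9 and 2 of 8 were below 0. Among all genes tested, 50.5% were below 0 in UL vs control, 53.0% in ULU vs control and 53.0% in ULU vs UL. The part of these cells, which are known sources of IL33, in the differences of IL33, IL1RAP and IL1R1 between diets was not tested.

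Immune markers were lower on average in ULU, with wide spread. Values of ULU vs control were below 0 for 8 of 8 tested lymphocyte markers (median -0.83) and 7 of 7 macrophage and monocyte markers (median -0.39). Among all genes tested, 53.0% were below 0 in that comparison (median -0.03). Lymphocyte markers (9 of 9, led by PTPRC) summed to 47.3 ± 24.4 CPM in control, 34.4 ± 7.45 CPM in UL and 23.8 ± 15.97 CPM in ULU, FOXP3 having at most 3 reads in every library. Of these sums PTPRC, which is not limited to lymphocytes, made up 29.3, 20.2 and 14.3 CPM on average. Without ULU replicate 42, at 48.8 CPM, the ULU mean of the sum was 17.5 ± 8.92 CPM (SD, n = 4). Macrophage and monocyte markers (7 of 7, led by CSF1R) summed to 79.96 ± 36.9, 68.4 ± 28.8 and 59.9 ± 51.1 CPM, the ULU mean being 37.9 ± 15.5 CPM (SD, n = 4) without ULU replicate 42 at 148 CPM, and mast cell markers (4 of 5, led by MS4A2) to 7.31 ± 5.83, 5.53 ± 4.54 and 4.86 ± 2.65 CPM, with CPA3 at 0 reads in all libraries. The low values of IL2RB and IL2RG in ULU, which lymphocytes express, stand beside these sums, whose part was not tested. Satellite cell markers (5 of 5, led by NCAM1) summed to 84.6 ± 14.3, 88.1 ± 9.89 and 96.8 ± 26.9 CPM and Schwann cell markers (4 of 5, led by MBP) to 14.7 ± 7.20, 17.1 ± 5.97 and 12.96 ± 4.80 CPM. Adipocyte markers (6 of 6, led by FABP4) summed to 201 ± 189, 111 ± 58.9 and 84.9 ± 49.2 CPM, the control mean being 124 ± 35.4 CPM (SD, n = 5) without replicate 24. Of the 5 adipocyte markers tested, 5 had a log2(fold change) below 0 in UL vs control (median -0.68). In ULU vs control 4 did (median -1.10), with AQP7 above 0, and in ULU vs UL 3 did (median -0.42). The part of adipocytes in the differences of IL33 was not tested.

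For each gene, the 3 genes most like it were found among the 14202 other tested genes by Pearson's r of the same deviations over 17 libraries, a description without a test, since the highest of many values is high by selection. HBEGF was most like LMCD1 (r of 0.863), SLC39A10 (0.863) and ENAH (0.845), and these 3 also led the ranking when diet means were not removed. IL1RAP was most like FMNL3 (0.826, but 0.502 without the 2 libraries farthest from the median of IL1RAP), TJP1 (0.822) and FRYL (0.817), and IL15 was most like PCSK5 (0.879), NECTIN3 (0.864) and MEX3D (0.848). FNDC5 was most like FBLN5 (0.836), PLS3 (0.813) and RDH11 (0.804). IL33 was most like ENSSSCG00000035585, which has no symbol (0.890), KLB, the co-receptor of FGF21 (0.870), and the unnamed ENSSSCG00000045737 (0.864). For KLB the value was 0.468, and for the other 2 genes 0.720 and 0.793, without the 2 libraries farthest from the median of IL33. The nearest genes to VEGFA were ENSSSCG00000032685 (0.800), PHF6 (0.787) and ENSSSCG00000046636 (0.786), and the nearest to METRNL were ENSSSCG00000045834 (0.821) and ENSSSCG00000049847 (0.821). For the genes named here other than those of IL33 and FMNL3, r was between 0.654 and 0.832 when the 2 libraries farthest from the median of their gene were left out in the same way. None of the 7 genes was among the 3 nearest of another of them.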

How the data were processed

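The authors trimmed reads with fastp, aligned them with HISAT2 to Sscrofa11.1 and deposited raw counts, 1 per gene and library, made with featureCounts (version 2.0.1 and Ensembl release 104 per the file headers, with default options for strand, overlapping genes and multiply placed reads). They also deposited a signal column, the mean raw count of each gene over the libraries, which was used only to check the counts. Symbols came from a table of Ensembl identifiers (15029 genes named), and 7 listed genes were named by RefSeq position. The members and the lists were chosen with earlier results of these data known. TMM scaling, filterByExpr and the quasi-likelihood F test of edgeR 4.0.16 (R 4.3.3) were run in 1 model of 17 libraries with Benjamini-Hochberg adjustment. Standard errors were the absolute log2(fold change) divided by the square root of F. DESeq2 1.42.0 was an alternative, as were other samples, factors, filters and libraries. The log2 CPM had a prior count of 2. Correlations used 100000 permutations within diets, and library measures exact two-sided permutations, in Python 3.11.15 with scipy. The named genes were the 7 members, list genes with an adjusted p under 0.05, the highest and lowest log2(fold change) of each list in each comparison, and the 3 genes most like each member; others named were chosen after their values were seen. A single result under this rule is not reported here. The tests were checked on simulated data, but the outcome is not given here. The labels name no batch.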

Additional observations from a re-analysis of the deposited data

Results flagged for a closer look

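Single libraries stood apart from the rest of their diet in 6 of 51 groups, each group being the values of 1 of the 7 genes or of 1 marker sum in 1 diet. The gap of that library to its neighbour, over the range of the group, was above Dixon's 95% critical value, which chance alone exceeds in about 1 in 20 groups. For the 7 genes, whose values were used to choose them, this marks a library and is not a test. Control replicate 24 had 23.2 CPM of IL33, the next control library having 9.81 CPM, and in the same library adipocyte markers summed to 581 CPM beside 172 CPM in the next. UL replicate 32 had 5.72 CPM of IL1RAP, the next UL library having 3.51 CPM. Endothelial markers summed to 102 CPM in control replicate 21, the next lowest control library having 147 CPM. Fibroblast markers summed to 2910 CPM in control replicate 25, beside 6110 CPM in the next lowest. Macrophage and monocyte markers summed to 148 CPM in ULU replicate 42, beside 58.5 CPM in the next.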

How the results depend on the processing

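The log2(fold change) of the 7 genes had the same sign under every alternative that gave a value, except for FNDC5 and VEGFA in UL vs control, whose values were near 0. VEGFA failed the filter without 5 of the libraries, each left out alone, and with the 2 diets compared alone. IL33 moved most, without control replicate 24, from -1.07 to -0.62 in UL vs control and from -1.27 to -0.82 in ULU vs control. The SD of its log2 CPM was 0.77 in control (0.36 without replicate 24), 0.22 in UL and 0.12 in ULU. The number of DEGs in UL vs control was 0, with 11 by DESeq2 and 0 to 2 when a library was left out (1 without control replicate 24, 2 without control replicate 25). In ULU vs control it was 59, with 89 by DESeq2, 27 with the 2 diets compared alone, 423 without a limit on the fold change and 30 to 121 when a library was left out. It was 30 without control replicate 22, 33 without 23, 121 without 25, and 32, 37 and 30 without ULU replicates 40, 41 and 43. In ULU vs UL it was 2, with 4 by DESeq2, 1 with the 2 diets alone, 5 without the limit and 1 to 3 when a library was left out (1 without UL replicate 31 or ULU replicates 40 or 41). Among 21 pairs of genes, 2 changed sign with Spearman's rho, HBEGF with IL15 (-0.0515) and IL15 with FNDC5 (-0.0735), and 4 changed sign without 2 libraries, none passing a test. Of 39 highest or lowest list values, 20 moved by over 1.5 times and 4 changed sign when a library was left out. The cause of these changes was not tested. Mean CPM moved by less than 1 SD in 42 of 42 cases with RLE factors or no factor. No paired analysis was possible because the diets share no replicate numbers. Depth limits VEGFA and METRNL, which had few reads.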
